A study of Homo sapiens with 12 samples.

Results

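Focal adhesion structural proteins are described here as a set of 33 genes, chosen by name as the structural and adaptor proteins of focal adhesions, out of 61587 genes in the table of expression values. The cells were A2058, an established line from a human cutaneous melanoma, and their RNA was sequenced in 12 libraries that form 4 groups of 3. Cells of the first pair of groups carried an siRNA to SOX10, siSOX10_1 in the one group and siSOX10_2 in the other, cells of the control group carried a negative control siRNA (siCNTL), and untreated cells had no transfection. The siRNAs were given at 12.5 nM with Lipofectamine RNAiMAX and RNA was taken after 96 hours. SOX10, a neural crest and melanocyte transcription factor, was lowered by the siRNAs but not deleted, and all results come from this cell line alone. Every batch, of 3 that the labels name, held 1 library of each group. The title of the study names SOX10 together with an integrin subunit and focal adhesion kinase, and the question asked here is which of the structural proteins at that site change in RNA level when SOX10 is lowered.

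A focal adhesion couples integrins, the receptors for extracellular matrix, to actin filaments through stacked layers of adaptor proteins. Talin and kindlin bind the integrin tail and switch it on, the ILK, PINCH and parvin complex joins beside them, vinculin and alpha-actinin tie talin to actin, and LIM-domain proteins such as zyxin collect where actin is under tension. Talin also binds KANK proteins at the rim of the adhesion, and GIT proteins bring regulators of small GTPases. In melanoma cells these sites carry traction during migration. Many genes of the actin-linking layer are known targets of serum response factor (SRF), which binds the CArG box and works with the actin-sensing MRTF coactivators.

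Values were TPM, a share of all transcripts that is scaled by transcript length and sums to 1000000 in every library. Read depth is therefore unknown. Between 13648 and 15333 genes reached 1 TPM in a library, and 15738 genes, among them all 33 members, passed the filter of at least 1 TPM in at least 3 libraries. The check of the labels held in every library, since SOX10 had 3.32 to 12.8 TPM in siSOX10_1 libraries and 4.24 to 11.8 TPM in siSOX10_2 libraries, against 28.6 to 36.8 TPM in siCNTL libraries and 22.3 to 32.4 TPM in untreated libraries. The summed level of 8 melanocyte markers was 424.3 to 2847 TPM in siSOX10_1 and 391.1 to 2118 TPM in siSOX10_2 libraries, against 6984 to 11220 TPM in siCNTL libraries and 10160 to 11170 TPM in untreated cells. Marker lists of leukocytes, epithelium and endothelium summed to at most 2.272 TPM in any library. The endothelial sum, low throughout, was 0.404 to 2.272 TPM with siSOX10_1 and 0.605 to 1.449 TPM with siSOX10_2. It was 0 to 0.17 TPM with siCNTL and 0.025 to 0.115 TPM in untreated cells. The 5 fibroblast markers summed to 112.9 to 160.5 TPM with siSOX10_1, 63.58 to 78.68 TPM with siSOX10_2, 174.7 to 205.7 TPM with siCNTL and 150.2 to 227.3 TPM in untreated cells. LUM made up most of that sum and fell with both siRNAs, whereas COL1A1, another of the 5, rose with both and had 8.14 to 10.3 TPM with siSOX10_1 and 7.96 to 11.5 TPM with siSOX10_2, against at most 0.096 TPM in any control library. The part of these marker differences in the results below was not tested. In bulk RNA, fewer cells of a kind and less RNA per cell cannot be told apart.

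Nearly all members that changed were higher with SOX10 siRNA. With siSOX10_1, 14 of 33 members rose and 1 fell against siCNTL (limma, adjusted p under 0.05), where 15.6% of all genes tested rose and 11.7% fell. With siSOX10_2, 15 members rose and 2 fell, where 18.4% of all genes rose and 10.4% fell. Both comparisons use the same siCNTL libraries. With both siRNAs 12 members rose (TLN1, VCL, FLNA, ACTN1, ACTN4, VASP, ZYX, TES, PDLIM1, PDLIM7, TGFB1I1 and LASP1), against 12.1% of all genes, and 1 fell (ENAH), against 7.99% of all genes. In the mean of both siRNAs 16 members rose and 1 fell, against 20.2% and 12.9% of all genes. The median log2 fold change of the members was 0.36 with siSOX10_1 and 0.38 with siSOX10_2, against medians of 0.03 and 0.12 over all genes tested. With each siRNA 24 of the 33 members (72.7%) lay above 0, against 51.9% of all genes tested with siSOX10_1 and 58.9% with siSOX10_2.

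The layers held different counts of members that rose, and the difference between layers was not tested. With both siRNAs, where 12.1% of all genes rose, 5 of 9 actin-linking proteins and 6 of 10 LIM proteins rose, as did 1 of 7 proteins that bind integrin or talin, 0 of 5 of the ILK complex and 0 of 2 GIT scaffolds. The median log2 fold change of the LIM proteins was 0.79 with siSOX10_1 and 1.10 with siSOX10_2, that of the actin-linking proteins 0.53 and 0.86, and that of the ILK complex 0.03 and 0.11. Summed over the 10 LIM proteins, the level was 809 to 957 TPM with siSOX10_1 and 868 to 1213 TPM with siSOX10_2, against 569 to 694 TPM with siCNTL and 561 to 658 TPM in untreated cells. Summed over the 5 proteins of the ILK complex, it was 452 to 476 TPM with siSOX10_1 and 478 to 489 TPM with siSOX10_2, against 424 to 492 TPM with siCNTL and 464 to 511 TPM in untreated cells. The LIM sums of all SOX10 siRNA libraries lay above those of all control libraries, and the ILK sums overlapped. In every library the largest part of the LIM sum was CSRP1 (221 to 484 TPM) and that of the ILK sum was ILK (259 to 322 TPM). Neither gene passed with either siRNA, and the ILK sum says little of the less abundant members. In batches 1 and 2 the LIM sum was 834 and 809 TPM with siSOX10_1, against 634 and 694 TPM with siCNTL. CSRP1 had 327 and 330 TPM there, against 319 and 351 TPM, so the difference in those sums lay in the other LIM proteins. In batch 3 CSRP1 was itself higher, at 395 TPM with siSOX10_1 against 221 TPM with siCNTL.

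**Figure D1:**
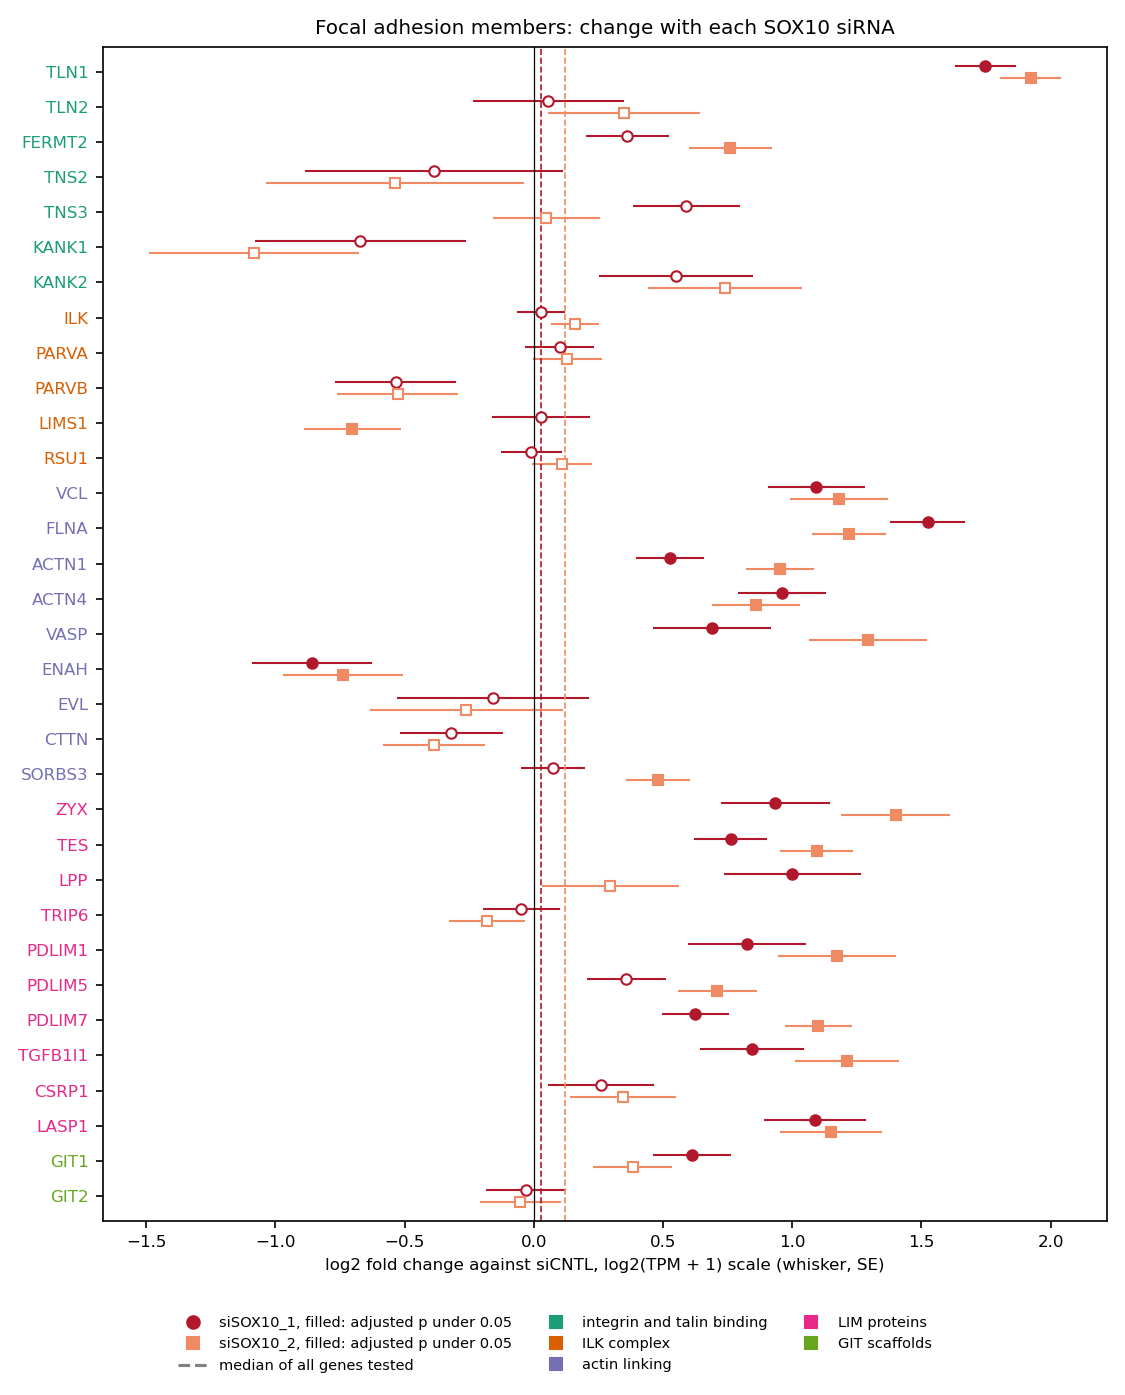
Log2 fold change of each of the 33 members against siCNTL on the log2(TPM + 1) scale (points, estimate; whiskers, SE), with siSOX10_1 as circles and siSOX10_2 as squares, filled where the adjusted p was under 0.05; names are coloured by layer and dashed lines mark the medians of all genes tested. TLN1 stands farthest to the right at 1.75 and 1.92, and the 5 members of the ILK complex lie near or below 0. ENAH is filled to the left at -0.86 and -0.74, as is LIMS1 of the ILK complex at -0.70 with siSOX10_2 only.

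Scaling moved the split between higher and lower calls. Median-of-ratios scaling of the TPM shifted the median of all genes by -0.12 (log2) with siSOX10_2 and by -0.04 with siSOX10_1. With that scaling 13 members rose and 4 fell with siSOX10_2, 12 rose and 1 fell with siSOX10_1, and 13 rose and 5 fell in the mean of both. Over all genes tested, 13.7% were then higher and 14.2% lower with siSOX10_2, 13.9% and 13.8% with siSOX10_1, and 16.5% and 16.6% in the mean. The members lower under this scaling were thus no larger a share than among all genes.

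The promoters of the members were read for 4 short motifs, and those that held a CArG box are printed because its share among members exceeded its share among all promoters by the most. RefSeq windows (GRCh38.p14) from 250 bases before to 50 bases after each annotated start were at hand for 30 of the 33 members, 57 windows in all. PARVA, CTTN and SORBS3 were not matched. A CArG box, searched on both strands, stood in 6 of 57 windows (10.5%), against 454 of 35116 windows of all genes (1.29%). Among the members that rose with both siRNAs it stood in 4 of 19 windows (21.1%), and among the other members in 2 of 38 (5.26%). The TEAD motif CATTCC was found in 14% of the members' windows and 14% of all windows, the AP-1 motif TGANTCA in 12.3% and 7.71%, and the SOX motif ACAAAG in 14% and 16.1%. These motifs were also searched on both strands. Split in the same way, TEAD stood in 3 of 19 windows (15.8%) of the members that rose with both siRNAs and 5 of 38 (13.2%) of the others. AP-1 stood in 1 of 19 (5.26%) and 6 of 38 (15.8%), and SOX in 1 of 19 (5.26%) and 7 of 38 (18.4%). Counted by gene in place of window, the CArG box stood in 20% of the 30 members and 1.6% of all genes, and TEAD in 23.3% and 16.7%. By the same count AP-1 stood in 16.7% and 9.37%, and SOX in 23.3% and 19%. The order of members and all genes for SOX thus depends on the unit counted. A gene counted if any of its windows matched, and members had more windows per gene (57 for 30 genes) than all genes (35116 for 27305). The count by gene therefore favours the members. Windows of the same gene can overlap and are not independent, the motifs were chosen with earlier results known, and no test was made.

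The 6 windows with a CArG box follow, 5′ to 3′ on the gene's strand, with the box in capitals. FLNA lies on the minus strand at chrX:154374585-154374884, ACTN1 on the minus strand at chr14:68977517-68977816, TES on the plus strand at chr7:116222703-116223002, TGFB1I1 on the plus strand at chr16:31472955-31473254, LPP on the plus strand at chr3:188212462-188212761 and RSU1 on the minus strand at chr10:16817375-16817674.
FLNA: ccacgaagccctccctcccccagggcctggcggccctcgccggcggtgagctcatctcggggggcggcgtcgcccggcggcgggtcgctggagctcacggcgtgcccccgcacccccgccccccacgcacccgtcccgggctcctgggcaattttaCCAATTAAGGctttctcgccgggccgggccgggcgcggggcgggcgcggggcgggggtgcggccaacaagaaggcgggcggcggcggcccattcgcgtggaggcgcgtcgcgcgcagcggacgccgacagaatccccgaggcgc
ACTN1: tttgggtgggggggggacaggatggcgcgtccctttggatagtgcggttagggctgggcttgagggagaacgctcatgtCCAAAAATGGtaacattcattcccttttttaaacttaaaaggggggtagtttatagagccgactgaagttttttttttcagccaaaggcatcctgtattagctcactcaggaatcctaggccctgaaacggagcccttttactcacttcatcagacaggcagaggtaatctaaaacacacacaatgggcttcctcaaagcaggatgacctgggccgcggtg
TES: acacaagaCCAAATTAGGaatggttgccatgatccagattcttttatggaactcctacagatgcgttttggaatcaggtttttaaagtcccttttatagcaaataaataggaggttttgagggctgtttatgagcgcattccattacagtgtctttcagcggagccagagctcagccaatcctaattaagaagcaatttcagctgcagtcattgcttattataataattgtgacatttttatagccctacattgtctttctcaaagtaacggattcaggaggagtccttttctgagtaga
TGFB1I1: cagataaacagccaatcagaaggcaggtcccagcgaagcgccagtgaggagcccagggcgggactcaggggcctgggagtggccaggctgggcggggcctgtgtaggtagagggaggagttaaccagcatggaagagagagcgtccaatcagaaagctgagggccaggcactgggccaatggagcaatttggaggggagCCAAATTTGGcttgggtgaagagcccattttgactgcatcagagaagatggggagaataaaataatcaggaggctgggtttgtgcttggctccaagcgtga
LPP: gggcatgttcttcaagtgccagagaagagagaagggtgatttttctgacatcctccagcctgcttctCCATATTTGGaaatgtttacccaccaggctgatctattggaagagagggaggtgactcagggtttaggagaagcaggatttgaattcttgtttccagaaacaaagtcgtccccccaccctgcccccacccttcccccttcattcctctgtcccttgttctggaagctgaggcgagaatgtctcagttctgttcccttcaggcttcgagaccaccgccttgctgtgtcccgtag
RSU1: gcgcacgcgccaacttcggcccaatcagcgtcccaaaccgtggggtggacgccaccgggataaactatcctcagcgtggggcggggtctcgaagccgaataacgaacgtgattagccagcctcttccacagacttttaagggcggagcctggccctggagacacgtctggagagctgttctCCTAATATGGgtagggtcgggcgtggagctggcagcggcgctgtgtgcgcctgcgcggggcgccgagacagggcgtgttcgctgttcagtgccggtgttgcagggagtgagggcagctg
The first base of the box lay 94 bases before the start in FLNA, 171 in ACTN1, 242 in TES, 51 in TGFB1I1, 183 in LPP and 69 in RSU1. In TES the box overlapped a TEAD match that began 234 bases before the start. The windows of FLNA and RSU1 belong to the sole start listed for each gene. The others belong to 1 of 4 listed starts of ACTN1, 1 of 2 of TES, 1 of 3 of TGFB1I1 and 1 of 7 of LPP, and the TPM do not tell which start was used. A match of letters is a description and shows no binding.

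**Figure D2:**
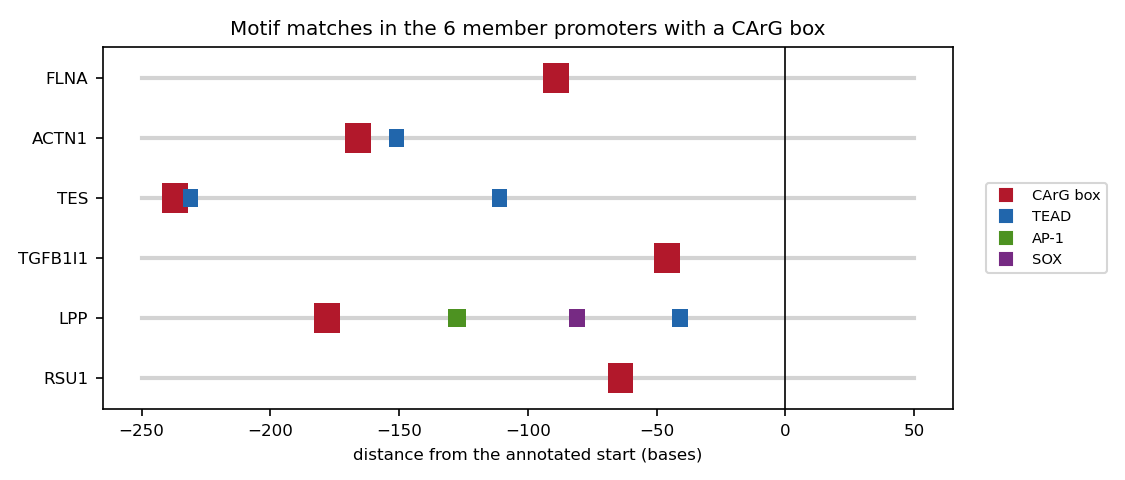
Position of motif matches in the 6 member promoters with a CArG box, in bases from the annotated start (vertical line at 0); grey lines are the windows read and coloured blocks are matches on either strand. The CArG box lies between 51 and 242 bases before the start in these windows, and overlaps a TEAD match in TES.

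In the layer that binds integrin and talin, TLN1 rose with both siRNAs and the other 6 members did not. TLN1 encodes talin, which activates integrins and bears the force between integrin and actin (ENSG00000137076.21, listed at 35696948 to 35732195 of chromosome 9, minus strand). It had 95.7, 92.9 and 83.02 TPM in siSOX10_1 libraries of batches 1, 2 and 3 and 107, 94.6 and 106 TPM in siSOX10_2 libraries, against 24.5, 26.8 and 27.4 TPM in siCNTL libraries and 26.3, 27.9 and 23.1 TPM in untreated libraries. All 6 SOX10 siRNA libraries lay far above all 6 control libraries. The log2 fold change was 1.75 with siSOX10_1 (SE 0.12, adjusted p = 6.18e-07) and 1.92 with siSOX10_2 (SE 0.12, adjusted p = 1.99e-07), and its mean TPM was 3.45 and 3.90 times that of siCNTL. These changes stood at percentiles 98.1 and 97.9 of all genes tested. Its paralog TLN2 had at most 2.27 TPM and reached 1 TPM in 5 libraries, and it showed log2 fold changes of 0.06 and 0.35 (adjusted p = 0.914 and 0.422).

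FERMT2 encodes kindlin-2, the coactivator of integrins beside talin. It had 28.0, 25.7 and 22.0 TPM with siSOX10_1 and 34.1, 27.9 and 39.0 TPM with siSOX10_2, against 18.4, 19.3 and 20.2 TPM with siCNTL and 17.2, 17.6 and 21.2 TPM in untreated cells. Every SOX10 siRNA library lay above every control library, the closest pair being 22.0 and 21.2 TPM. It rose with siSOX10_2 (log2 fold change 0.76, SE 0.16, adjusted p = 0.00332), and with siSOX10_1 the value was 0.36 (adjusted p = 0.116, and 0.0313 without batch 3).

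The tensins bind integrin tails and actin. TNS3 had 9.35, 7.80 and 10.0 TPM with siSOX10_1 and 6.18, 6.59 and 4.97 TPM with siSOX10_2, against 5.33, 5.43 and 6.24 TPM with siCNTL and 5.03, 4.36 and 6.84 TPM in untreated cells. The siSOX10_1 libraries lay above all others. The log2 fold change with siSOX10_1 was 0.59 (adjusted p = 0.0504), which became 0.0447 with the batch as a block, 0.0439 without untreated replicate 3 and 0.0457 without siSOX10_2 replicate 3. With siSOX10_2 it was 0.05 (adjusted p = 0.894). TNS2 did not pass with either siRNA (adjusted p = 0.614 and 0.471), and without batch 3 it was lower with siSOX10_2 by -0.66 (adjusted p = 0.0412). It is described with the batches below.

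KANK1 and KANK2 bind talin and link adhesions to cortical microtubule sites. KANK1 had 14.2, 12.9 and 5.73 TPM with siSOX10_1 and 13.5, 9.37 and 3.00 TPM with siSOX10_2, against 14.8, 19.7 and 16.6 TPM with siCNTL and 19.0, 18.8 and 18.4 TPM in untreated cells. Every SOX10 siRNA library lay below every control library, with the lowest values in batch 3. The log2 fold changes were -0.67 (SE 0.41, adjusted p = 0.251) and -1.08 (SE 0.41, adjusted p = 0.0639). With siSOX10_2 the adjusted p was 0.0227 with the batch as a block, 0.0379 without siSOX10_1 replicate 3 and 0.0181 (log2 fold change -1.47) without siSOX10_2 replicate 1. KANK2 ran the other way, with 11.0, 5.25 and 4.67 TPM with siSOX10_1 and 7.87, 8.85 and 6.26 TPM with siSOX10_2, against 6.02, 2.99 and 3.87 TPM with siCNTL and 5.13, 4.71 and 5.75 TPM in untreated cells. The siSOX10_1 libraries overlapped the controls, and those of siSOX10_2 lay above them. Its log2 fold changes of 0.55 and 0.74 did not pass (adjusted p = 0.197 and 0.082), and with siSOX10_2 the adjusted p was 0.0437 with the block, 0.049 without siCNTL replicate 1 and 0.0401 without siSOX10_1 replicate 1.

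In the ILK complex none of 5 members rose, and LIMS1 fell with siSOX10_2. ILK, the pseudokinase at the centre of the complex, was the second most abundant member. It had 307, 291 and 262 TPM with siSOX10_1 and 322, 310 and 310 TPM with siSOX10_2, against 290, 294 and 259 TPM with siCNTL and 322, 279 and 299 TPM in untreated cells. The groups overlapped, and the log2 fold changes were 0.03 (SE 0.09, adjusted p = 0.865) and 0.16 (SE 0.09, adjusted p = 0.232). ILK overlaps TAF10 on the opposite strand, which averaged 364 TPM. Whether counting used the strand is not stated in the sources at hand, and the reads of the pair may be mixed.

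PARVA encodes alpha-parvin, an actin-binding partner of ILK, and RSU1 binds PINCH. PARVA ranged over 52.8 to 55.8 TPM with siSOX10_1 and 53.8 to 56.0 TPM with siSOX10_2, against 45.01 to 62.1 TPM with siCNTL and 51.8 to 61.01 TPM in untreated cells. RSU1 ranged over 67.8 to 80.1 TPM with siSOX10_1 and 73.6 to 90.8 TPM with siSOX10_2, against 69.8 to 80.0 TPM with siCNTL and 66.9 to 73.2 TPM in untreated cells. Neither passed with either siRNA, with log2 fold changes between -0.01 and 0.13.

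PARVB, which encodes beta-parvin, had 11.0, 14.3 and 17 TPM with siSOX10_1 and 12.6, 12.8 and 16.8 TPM with siSOX10_2, against 21.9, 25.9 and 15.2 TPM with siCNTL and 23.9, 31.5 and 20.0 TPM in untreated cells. The siCNTL library of batch 3 alone fell within the range of the SOX10 siRNA libraries. The log2 fold change was -0.53 with each siRNA (SE 0.23, adjusted p = 0.112 and 0.113). Without siCNTL replicate 3 it was -0.74 with siSOX10_1 and -0.73 with siSOX10_2 (adjusted p = 0.0363 each), and against untreated cells it was -0.79 and -0.78 (adjusted p = 0.0237 and 0.023). PARVB overlaps SAMM50 on the same strand, which averaged 69.3 TPM.

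LIMS1 encodes PINCH1, the LIM adaptor of ILK. It had 32.3, 37.5 and 37.3 TPM with siSOX10_1 and 25.1, 24.1 and 15.4 TPM with siSOX10_2, against 32.1, 37.8 and 35.1 TPM with siCNTL and 38.0, 32.5 and 26.9 TPM in untreated cells. The siSOX10_2 libraries lay below all others, and those of siSOX10_1 lay among the controls. The log2 fold change was -0.70 with siSOX10_2 (SE 0.19, adjusted p = 0.0136) and 0.03 with siSOX10_1 (adjusted p = 0.932). The near-identical copies LIMS3 and LIMS4 had 0.598 to 1.33 and 0.535 to 1.70 TPM, and the sources at hand do not state how reads were shared among the copies.

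In the actin-linking layer VCL, FLNA, ACTN1, ACTN4 and VASP rose with both siRNAs and ENAH fell. VCL encodes vinculin, which joins stretched talin to actin. It had 60.3, 54.3 and 62.7 TPM with siSOX10_1 and 62.2, 55.8 and 71.2 TPM with siSOX10_2, against 22.4, 36.2 and 24.6 TPM with siCNTL and 38.95, 29.1 and 26.7 TPM in untreated cells. All SOX10 siRNA libraries lay above all control libraries. The log2 fold changes were 1.09 (SE 0.19, adjusted p = 0.000982) and 1.18 (SE 0.19, adjusted p = 0.000512). VCL overlaps AP3M1 on the opposite strand, which averaged 39.1 TPM.

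FLNA encodes filamin A, which crosslinks actin and binds integrin tails, and its promoter is printed above. It had 116, 116 and 124 TPM with siSOX10_1 and 86.0, 84.8 and 121 TPM with siSOX10_2, against 38.4, 46.7 and 37.3 TPM with siCNTL and 40.6, 46.1 and 42.6 TPM in untreated cells. The lowest SOX10 siRNA library stood well above the highest control library. The log2 fold changes were 1.52 (SE 0.14, adjusted p = 9.57e-06) and 1.22 (SE 0.14, adjusted p = 5.15e-05), after TLN1 the highest of the members with siSOX10_1.

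The alpha-actinins crosslink actin filaments and bind vinculin and zyxin. ACTN1, the third most abundant member, had 167, 165 and 172 TPM with siSOX10_1 and 201, 206 and 278 TPM with siSOX10_2, against 105, 135 and 111 TPM with siCNTL and 117, 108 and 114 TPM in untreated cells. ACTN4 had 34.98, 32.6 and 35.5 TPM with siSOX10_1 and 38.5, 26.3 and 32.2 TPM with siSOX10_2, against 15.5, 20.6 and 15.8 TPM with siCNTL and 17.8, 15.0 and 14.4 TPM in untreated cells. Both genes were higher in every SOX10 siRNA library than in any control library. ACTN1 rose by 0.53 (SE 0.13, adjusted p = 0.00936) and 0.95 (SE 0.13, adjusted p = 0.000171) on the log2 scale, and ACTN4 by 0.96 (SE 0.17, adjusted p = 0.00117) and 0.86 (SE 0.17, adjusted p = 0.00217).

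The Ena/VASP proteins, which speed the growth of actin filaments and are drawn to adhesions by zyxin, moved apart. VASP had 21.4, 16.4 and 14.9 TPM with siSOX10_1 and 28.3, 18.6 and 37.0 TPM with siSOX10_2, against 9.60, 11.7 and 10.05 TPM with siCNTL and 10.8, 9.31 and 11.1 TPM in untreated cells. All SOX10 siRNA libraries were above all control libraries, and siSOX10_2 varied most among its own libraries. VASP rose by 0.69 with siSOX10_1 (SE 0.23, adjusted p = 0.0403) and by 1.29 with siSOX10_2 (SE 0.23, adjusted p = 0.00103). The siSOX10_1 call was lost in 9 of the 12 fits that left out 1 library (any untreated or siCNTL library, siSOX10_1 replicate 1 or 2, or siSOX10_2 replicate 1), with adjusted p up to 0.149, and under median-of-ratios scaling (adjusted p = 0.0588).

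ENAH had 3.00, 3.01 and 2.00 TPM with siSOX10_1 and 3.43, 3.37 and 2.19 TPM with siSOX10_2, against 4.57, 6.97 and 5.46 TPM with siCNTL and 6.12, 5.98 and 5.42 TPM in untreated cells. The SOX10 siRNA libraries lay below every control library, at low levels throughout. It fell by 0.86 (SE 0.23, adjusted p = 0.0145) and 0.74 (SE 0.23, adjusted p = 0.0287) on the log2 scale. Leaving out siCNTL replicate 2 ended the siSOX10_1 call (adjusted p = 0.0628), as did leaving out siSOX10_1 replicate 3 (adjusted p = 0.0516). The siSOX10_2 call ended on leaving out siCNTL replicate 2 (adjusted p = 0.111), siCNTL replicate 3 (adjusted p = 0.0532) or siSOX10_2 replicate 3 (adjusted p = 0.103), and without batch 3 (adjusted p = 0.0852). The log2(TPM + 1) level of VASP exceeded that of ENAH by 2.12 to 2.49 with siSOX10_1 and 2.16 to 3.58 with siSOX10_2, against 0.67 to 0.93 with siCNTL and 0.56 to 0.91 in untreated cells. EVL, the remaining relative, had at most 2.39 TPM and did not pass.

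CTTN encodes cortactin, which stabilizes branched actin, and SORBS3 encodes vinexin, a partner of vinculin. CTTN had log2 fold changes of -0.32 and -0.39 (adjusted p = 0.264 and 0.171), and with siSOX10_2 the adjusted p was 0.0391 with the batch as a block. SORBS3 had 59.7, 62.4 and 59.0 TPM with siSOX10_1 and 77.3, 74.6 and 89.9 TPM with siSOX10_2, against 57.0, 60.7 and 54.5 TPM with siCNTL and 45.3, 50.04 and 59.5 TPM in untreated cells. The siSOX10_2 libraries alone stood above the rest. SORBS3 rose by 0.48 with siSOX10_2 (SE 0.12, adjusted p = 0.0109, and 0.108 under median-of-ratios scaling), and with siSOX10_1 its value was 0.07 (adjusted p = 0.713).

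**Figure D3:**
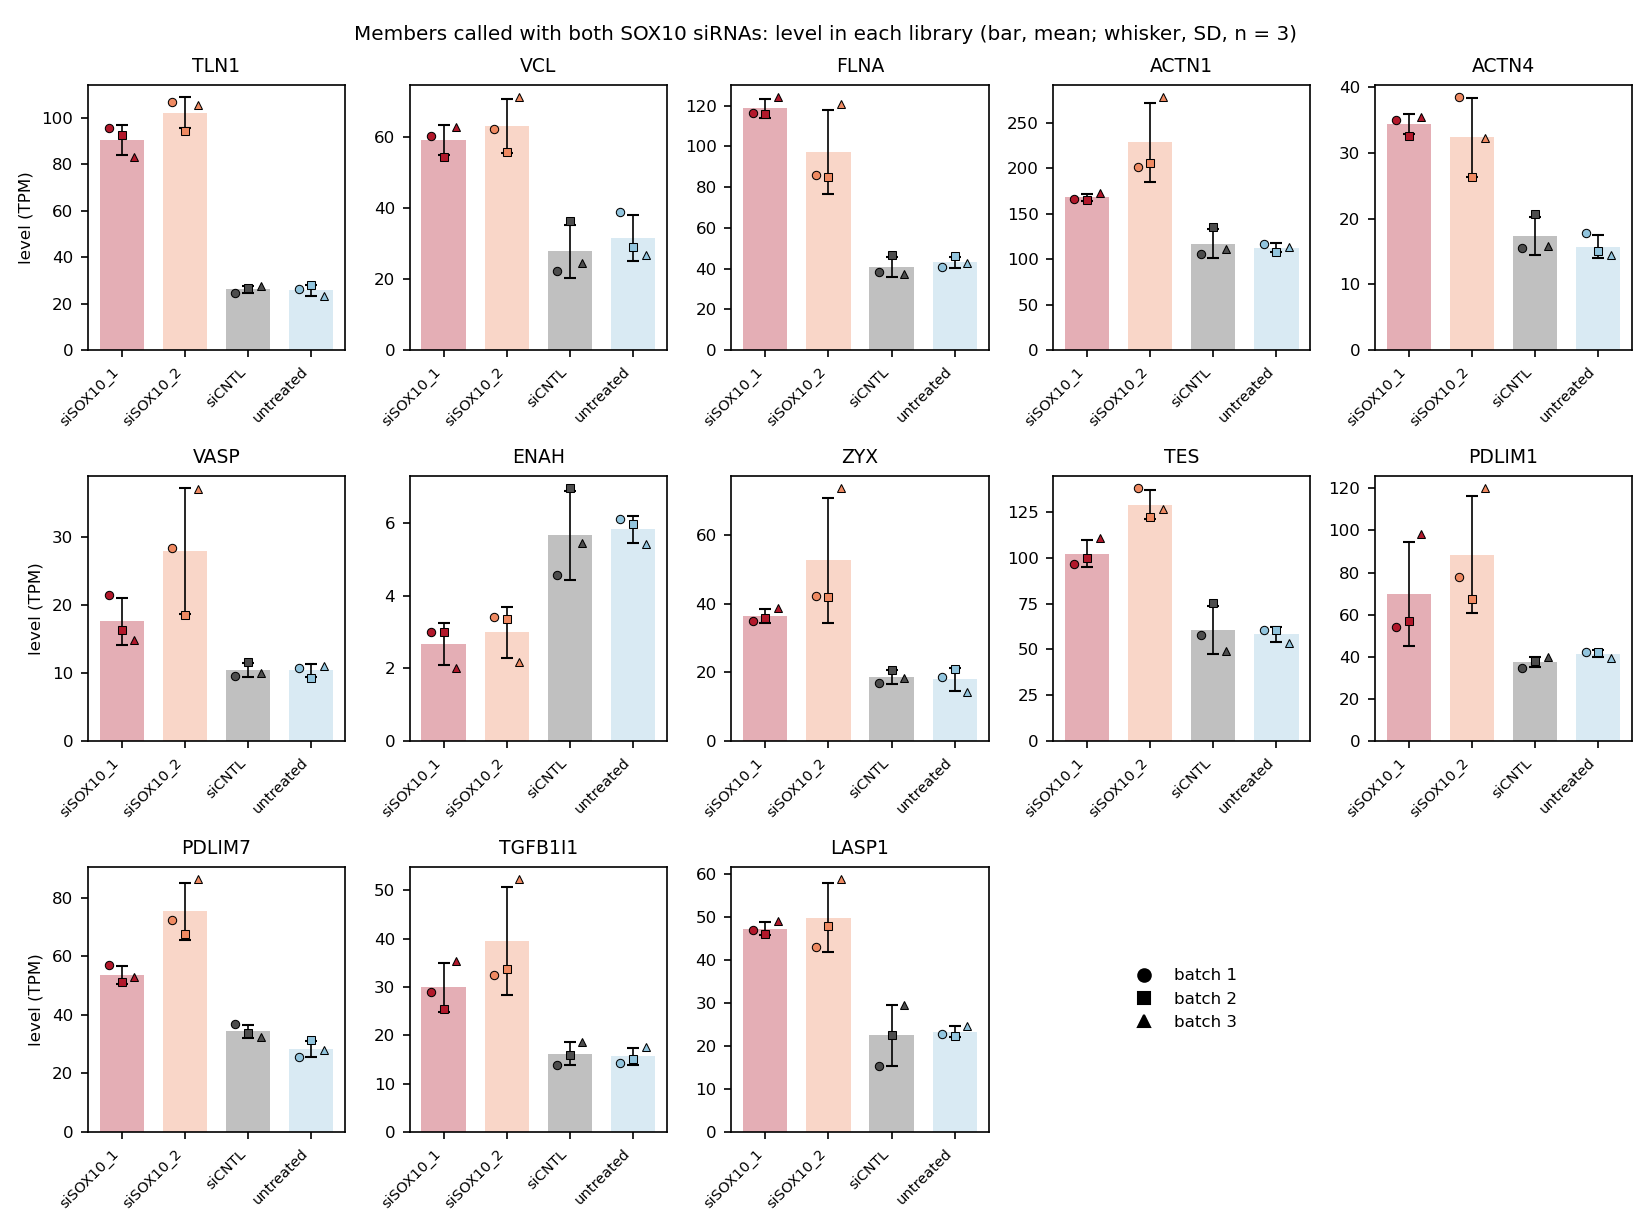
Level in TPM of the 13 members called with both SOX10 siRNAs, with 1 panel per gene and the 4 groups along the x axis; bars are means, whiskers are SD (n = 3) and points are libraries marked by batch. In every panel but ENAH the 6 SOX10 siRNA libraries stand above the 6 control libraries, and in ENAH they stand below. The TLN1 means are 90.5 and 102 TPM against 26.2 TPM with siCNTL and 25.8 TPM in untreated cells.

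Among the LIM proteins, ZYX, TES, PDLIM1, PDLIM7, TGFB1I1 and LASP1 rose with both siRNAs. ZYX encodes zyxin, which senses strain in stress fibres and brings Ena/VASP proteins to them. It had 34.9, 35.8 and 38.8 TPM with siSOX10_1 and 42.2, 41.9 and 73.6 TPM with siSOX10_2, against 16.9, 20.8 and 18.2 TPM with siCNTL and 18.8, 20.9 and 14.3 TPM in untreated cells. Its SOX10 siRNA libraries did not overlap the control libraries, and siSOX10_2 replicate 3 stood apart at the top. ZYX rose by 0.93 (SE 0.21, adjusted p = 0.00546) and 1.40 (SE 0.21, adjusted p = 0.000327) on the log2 scale.

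Its family members behaved differently from each other. LPP had 31.4, 18.1 and 29.3 TPM with siSOX10_1 and 16.0, 15.6 and 14.4 TPM with siSOX10_2, against 8.59, 12.4 and 17.1 TPM with siCNTL and 13.6, 23.2 and 18.4 TPM in untreated cells. The siSOX10_1 libraries lay above the siCNTL libraries and overlapped the untreated ones, and the siSOX10_2 libraries overlapped both. LPP rose by 1.00 with siSOX10_1 (SE 0.27, adjusted p = 0.0136), and with siSOX10_2 its value was 0.30 (adjusted p = 0.451). The siSOX10_1 call ended when siCNTL replicate 1 (0.77, adjusted p = 0.0685) or siSOX10_1 replicate 1 (0.86, adjusted p = 0.058) was left out, and against untreated cells (0.48, adjusted p = 0.202). In the mean of both siRNAs LPP passed (0.65, adjusted p = 0.0452), and this call was lost in 8 of the 12 fits that left out 1 library (adjusted p up to 0.249 without siCNTL replicate 1). TRIP6, also of the zyxin family, ranged over 50.5 to 72.3 TPM with siSOX10_1 and 55.4 to 61.3 TPM with siSOX10_2, against 61.9 to 72.8 TPM with siCNTL and 56.7 to 71.7 TPM in untreated cells, and did not pass (adjusted p = 0.847 and 0.405).

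TES encodes testin, a binding partner of zyxin and Ena/VASP proteins. It had 96.5, 99.7 and 111 TPM with siSOX10_1 and 138, 122 and 127 TPM with siSOX10_2, against 57.7, 75.2 and 49.3 TPM with siCNTL and 60.7, 60.4 and 53.6 TPM in untreated cells. The lowest SOX10 siRNA library, at 96.5 TPM, lay above the highest control library, at 75.2 TPM. TES rose by 0.76 (SE 0.14, adjusted p = 0.00159) and 1.09 (SE 0.14, adjusted p = 0.000103) on the log2 scale.

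The PDZ-LIM proteins bind alpha-actinin. PDLIM1 had 54.1, 56.9 and 98.3 TPM with siSOX10_1 and 77.75, 67.7 and 120 TPM with siSOX10_2, against 34.7, 38.2 and 39.7 TPM with siCNTL and 42.3, 42.4 and 39.6 TPM in untreated cells. PDLIM7 had 57.0, 51.2 and 52.8 TPM with siSOX10_1 and 72.3, 67.5 and 86.4 TPM with siSOX10_2, against 36.9, 33.9 and 32.6 TPM with siCNTL and 25.6, 31.3 and 28.0 TPM in untreated cells. For both genes the SOX10 siRNA libraries lay above the control libraries, and PDLIM1 was highest in batch 3 of both siRNAs. PDLIM1 rose by 0.83 (SE 0.23, adjusted p = 0.0168) and 1.18 (SE 0.23, adjusted p = 0.00193) on the log2 scale. Its siSOX10_1 call ended when siCNTL replicate 1 (0.77, adjusted p = 0.063) or siSOX10_1 replicate 3 (0.55, adjusted p = 0.0606) was left out, and under median-of-ratios scaling (adjusted p = 0.0628). PDLIM7 rose by 0.62 (SE 0.13, adjusted p = 0.00331) and 1.10 (SE 0.13, adjusted p = 4.98e-05), and no alternative other than the fold threshold ended either call.

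PDLIM5, which also anchors protein kinases at actin, had 84.9, 75.4 and 97.3 TPM with siSOX10_1 and 97.5, 96.3 and 139 TPM with siSOX10_2, against 67.5, 62.0 and 70.0 TPM with siCNTL and 51.0, 57.0 and 63.1 TPM in untreated cells. All SOX10 siRNA libraries lay above all control libraries. PDLIM5 rose by 0.71 with siSOX10_2 (SE 0.15, adjusted p = 0.00376, and 0.0552 under median-of-ratios scaling). With siSOX10_1 the value was 0.36 (adjusted p = 0.104), which passed with the batch as a block (adjusted p = 0.0305) and without siSOX10_2 replicate 3 (adjusted p = 0.0451).

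TGFB1I1 encodes Hic-5, a relative of paxillin. It had 29, 25.4 and 35.4 TPM with siSOX10_1 and 32.5, 33.7 and 52.3 TPM with siSOX10_2, against 13.9, 15.9 and 18.7 TPM with siCNTL and 14.2, 15.2 and 17.6 TPM in untreated cells. Its SOX10 siRNA libraries did not overlap the control libraries, and batch 3 was highest in each of the 4 groups. TGFB1I1 rose by 0.85 (SE 0.20, adjusted p = 0.00752) and 1.21 (SE 0.20, adjusted p = 0.000668) on the log2 scale.

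LASP1, an actin-binding LIM and SH3 protein, had 47.0, 46.0 and 49.1 TPM with siSOX10_1 and 43.1, 47.9 and 58.9 TPM with siSOX10_2, against 15.3, 22.7 and 29.5 TPM with siCNTL and 22.9, 22.3 and 24.8 TPM in untreated cells. All SOX10 siRNA libraries lay above 43 TPM and all control libraries below 30 TPM. LASP1 rose by 1.09 (SE 0.20, adjusted p = 0.00136) and 1.15 (SE 0.20, adjusted p = 0.000819). CSRP1, a LIM-only protein that binds alpha-actinin and the most abundant member, had 327, 330 and 395 TPM with siSOX10_1 and 327, 320 and 484 TPM with siSOX10_2, against 319, 351 and 221 TPM with siCNTL and 343, 318 and 230 TPM in untreated cells. The SOX10 siRNA libraries lay among the control libraries in batches 1 and 2 and above them in batch 3, and its log2 fold changes of 0.26 and 0.34 did not pass (adjusted p = 0.388 and 0.243).

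Of the GIT scaffolds, which are ARF GTPase-activating proteins that bind paxillin and PIX exchange factors, GIT1 rose with siSOX10_1. GIT1 had 60.96, 59.9 and 54.8 TPM with siSOX10_1 and 50.1, 44.8 and 54.6 TPM with siSOX10_2, against 30.2, 38.5 and 46.7 TPM with siCNTL and 39.5, 41.7 and 44.7 TPM in untreated cells. The siSOX10_1 libraries lay above all control libraries, and the siSOX10_2 libraries overlapped them. The log2 fold change was 0.61 with siSOX10_1 (SE 0.15, adjusted p = 0.00909) and 0.38 with siSOX10_2 (adjusted p = 0.0771, and 0.0177 without siCNTL replicate 3, where it was 0.53). In the mean of both siRNAs its call ended when siCNTL replicate 1 was left out (0.34, adjusted p = 0.0717). GIT2 kept to 21.3 to 25.1 TPM with siSOX10_1 and 21.6 to 25.1 TPM with siSOX10_2, against 20.7 to 29.6 TPM with siCNTL and 21.1 to 22.9 TPM in untreated cells, and did not pass.

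**Figure D4:**
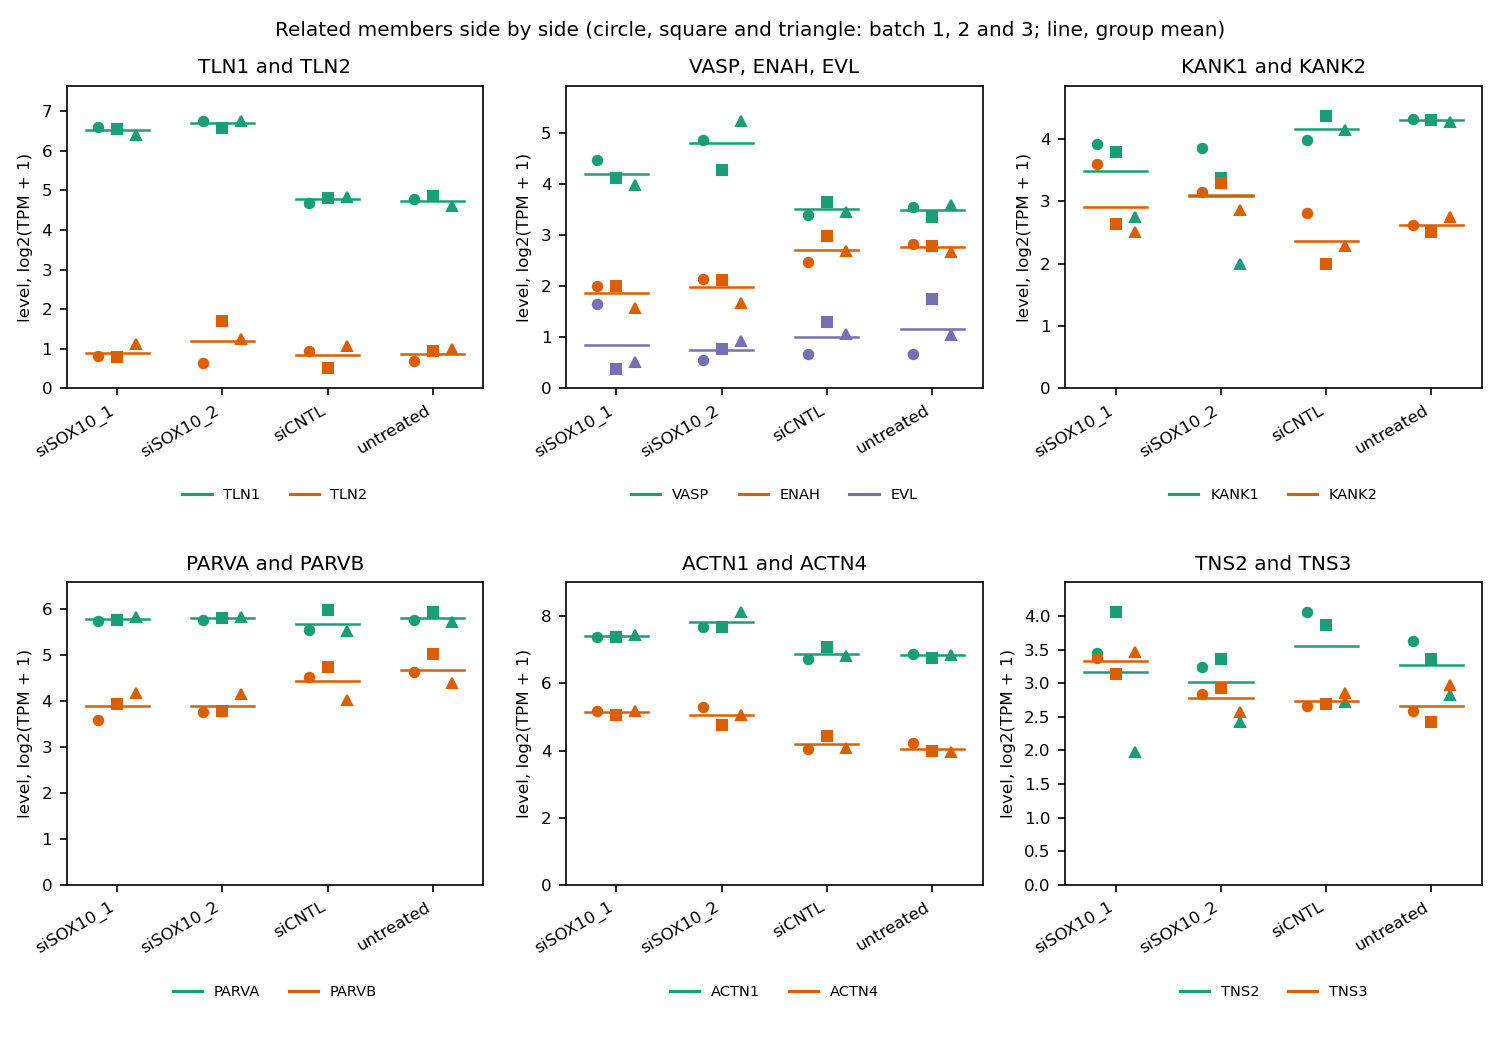
Level on the log2(TPM + 1) scale of related members in the 4 groups (circle, square and triangle, libraries of batches 1, 2 and 3; lines, group means). VASP and ENAH stand 2.12 to 3.58 apart in SOX10 siRNA libraries and 0.56 to 0.93 apart in control libraries, TLN2 stays near 1 while TLN1 is higher with SOX10 siRNA, and KANK1 and KANK2 draw together.

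Ranked without a test, all 6 SOX10 siRNA libraries lay above all 6 control libraries for 14 of the 33 members, where 14% of all genes tested did so, and below for 2 members, KANK1 and ENAH, where 9.37% of all genes did. The 14 were the 12 that rose with both siRNAs, FERMT2 and PDLIM5. CSRP1, ILK and ACTN1 were the 3 most abundant members in siSOX10_1, siSOX10_2 and siCNTL cells. TLN1 stood at rank 6 of 33 in both siRNA groups, against rank 17 with siCNTL, and RSU1 at ranks 8 and 10 against rank 4. Neighbours in this order often did not differ beyond their spread, as with ZYX (18.7 ± 1.96 TPM), FERMT2 (19.3 ± 0.881 TPM) and PARVB (21.0 ± 5.39 TPM) in siCNTL cells (SD, n = 3 each).

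Set directly against each other, the siRNAs gave no member a different level at the threshold. No member passed between siSOX10_2 and siSOX10_1 (limma), where 1.07% of all genes were higher and 0.489% lower with siSOX10_2, and 11 members had an unadjusted p under 0.05, as had 14.4% of all genes. The smallest adjusted p was that of LIMS1 (log2 difference -0.73, SE 0.19, adjusted p = 0.0779), which passed with the batch as a block (0.0429), with median-of-ratios scaling (0.0348) and with quantile normalization (0.0258). The next were PDLIM7 (0.48, SE 0.13, adjusted p = 0.0944), SORBS3 (0.41, SE 0.12, adjusted p = 0.129) and ACTN1 (0.42, SE 0.13, adjusted p = 0.134), each higher with siSOX10_2. The calls made with a single siRNA for FERMT2, LPP, SORBS3, PDLIM5 and GIT1 were not shown to differ between the siRNAs.

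Control transfection itself was checked by setting siCNTL against untreated cells. None of the 33 members passed, as 0% of all genes tested did in either direction (limma), and 581 genes (3.69%) but 0 members had an unadjusted p under 0.05. The members' log2 differences ran from -0.52 in LPP to 0.28 in TNS2, and the smallest adjusted p over all genes was 0.729. Against untreated cells in place of siCNTL, 15 members rose and 2 fell with siSOX10_1, and 15 rose and 4 fell with siSOX10_2. Over all genes, 15.9% were then higher and 12.2% lower with siSOX10_1, and 19.3% and 11% with siSOX10_2.

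The batches differed in a few members. With the groups held in the fit, batch 3 was higher than batches 1 and 2 in TGFB1I1 (0.39, SE 0.11, adjusted p = 0.0375), where 1.49% of all genes were higher. It was lower in TNS2 (-1.14, SE 0.19, adjusted p = 0.00524) and CTTN (-0.40, SE 0.10, adjusted p = 0.0259), where 9.17% of all genes were lower. TNS2, a tensin, had 9.90, 15.7 and 2.94 TPM in batches 1, 2 and 3 of siSOX10_1 and 8.5, 9.24 and 4.39 TPM of siSOX10_2, against 15.7, 13.5 and 5.62 TPM of siCNTL and 11.3, 9.32 and 6.05 TPM of untreated cells. Its batch 3 value was the lowest in each of the 4 groups. TNS2 overlaps SPRYD3 on the opposite strand, which averaged 11.7 TPM, and the reads of the pair may be mixed. CTTN had 48.3, 39.1 and 27.1 TPM with siSOX10_1 and 39.2, 37.9 and 29.9 TPM with siSOX10_2, against 50.2, 52.4 and 38.4 TPM with siCNTL and 48.5, 44.98 and 41.2 TPM in untreated cells, with batch 3 lowest in each group as well. The TGFB1I1 call was lost in 9 of the 12 fits that left out 1 library and the CTTN call in 7 of them, and CTTN also under median-of-ratios scaling (-0.25, adjusted p = 0.0877). That scaling shifted the median of all genes by 0.13 (log2) in this comparison, and 3 members were then higher and 1 lower in batch 3, where 4.84% of all genes were higher and 4.68% lower. Without untreated replicate 3, KANK1 was also lower (-0.92, adjusted p = 0.0327) and PDLIM1 higher (0.55, adjusted p = 0.0164) in batch 3. Without untreated replicate 2, PDLIM5 was higher in batch 3 (0.31, adjusted p = 0.0455).

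The size of the change was also taken within batches, each SOX10 siRNA library against the siCNTL library of its own batch. For the 12 members that rose with both siRNAs, whose direction is fixed by that choice, the differences ran from 0.29 in ACTN1 to 2.08 in TLN1 on the log2(TPM + 1) scale. Both siRNAs were then averaged for each member. The median of these averages over the 12 members was 1.16 in batch 1, 0.73 in batch 2 and 1.21 in batch 3. Batch 2 gave the smallest average in 10 of the 12. The differences that follow are averages of the same kind. ENAH differed by -0.40, -0.93 and -1.06 in batches 1, 2 and 3. KANK1 differed by -0.08, -0.79 and -1.76, and PARVB by -0.84, -0.89 and 0.14. Batch 3 holds 1 library of each group, so whether the siRNA effect on these 3 members differed in batch 3 cannot be told. SOX10 itself differed from siCNTL by -1.22, -1.34 and -2.99 in batches 1, 2 and 3, and MITF, the melanocyte transcription factor, by -1.45, -1.70 and -3.81. Both were thus lowered most in batch 3, and the part of this in the batch 3 values of CSRP1, KANK1 and PDLIM1 was not tested.

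**Figure D5:**
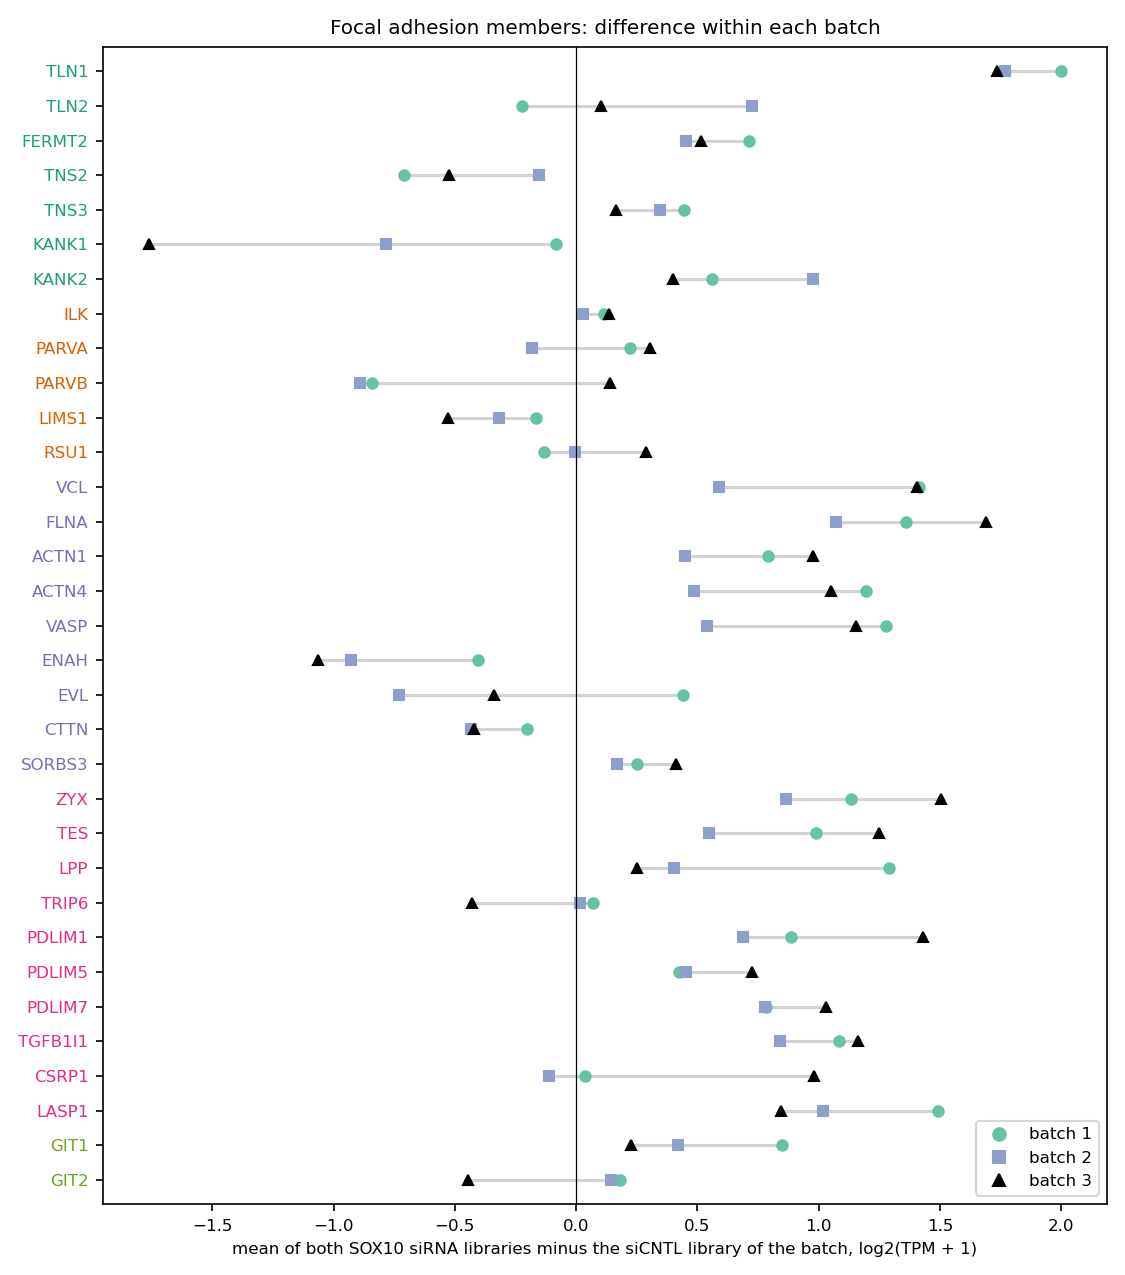
Mean of both SOX10 siRNA libraries minus the siCNTL library of the same batch, on the log2(TPM + 1) scale, for each of the 33 members (circle, square and triangle, batches 1, 2 and 3; grey lines span the batches). The 12 members called higher with both siRNAs lie right of 0 in every batch, TLN1 at 2.00, 1.77 and 1.74, while PARVB and CSRP1 have batches on both sides of 0.

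Of 31 paralogs and partners of the members, chosen as relatives that stand outside the set, 22 were tested. With both siRNAs 9 rose and 0 fell, read against the 12.1% and 7.99% of all genes. Of the 9, FERMT3, KANK4 and HCLS1 passed the filter only through the SOX10 siRNA libraries, where they were high. Such genes could hardly have been called lower, so their calls lend no support to the count. Set against siCNTL separately, 9 of the relatives rose with siSOX10_1, where 15.6% of all genes rose, and 13 with siSOX10_2, where 18.4% did. The 13 also hold a relative that reached 1 TPM in siSOX10_2 libraries only. PDLIM3, a PDZ-LIM protein of the actin cytoskeleton, had 51.9, 69.2 and 91.7 TPM with siSOX10_1 and 60.6, 79.1 and 87.7 TPM with siSOX10_2, against 10.3, 13.6 and 15.9 TPM with siCNTL and 21.4, 23.8 and 23.3 TPM in untreated cells. All 6 SOX10 siRNA libraries lay above all 6 control libraries. PDLIM3 rose by 2.31 (adjusted p = 7.62e-06) and 2.43 (adjusted p = 4.54e-06) on the log2 scale. SORBS2, a relative of vinexin, rose by 1.5 and 1.91, FHL1, a LIM-only protein, by 1.51 and 1.16, and PDLIM4 by 0.84 and 0.70. HCLS1, a relative of cortactin, rose by 1.05 and 1.85 at no more than 4.89 TPM, and FERMT3, a kindlin best known from blood cells, by 1.05 and 1.5 at no more than 3.04 TPM. KANK4 had 0.52 to 2.57 TPM with siSOX10_1 and 1.38 to 2.27 TPM with siSOX10_2, and was listed at 0 in all 6 control libraries, so no fold is given.

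Of 9 regulators of actin cytoskeleton genes, all tested, 1 (WWTR1) rose with both siRNAs, a share near the 12.1% of all genes. WWTR1 encodes TAZ, a coactivator of TEAD factors, and had log2 fold changes of 0.60 (adjusted p = 0.0169) and 0.55 (adjusted p = 0.0242). Its mean was 219 ± 22.3 TPM in siSOX10_1 cells and 211.9 ± 15.8 TPM in siSOX10_2 cells, against 149 ± 44.3 TPM in siCNTL cells and 174 ± 6.78 TPM in untreated cells (SD, n = 3 each). SRF itself averaged 2.09 TPM in siSOX10_1 cells and 2.81 TPM in siSOX10_2 cells, against 2.11 TPM in siCNTL cells and 1.33 TPM in untreated cells, and did not pass (adjusted p = 0.992 and 0.412). MRTFA rose with siSOX10_1 (0.55, adjusted p = 0.0376) and TEAD2 fell with it by 0.88 (adjusted p = 0.0125).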

How the data were processed

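RNA of A2058 cells was turned into 12 libraries with a SMART-Seq low-input kit and Nextera XT, per the labels' protocols. The authors deposited TPM per gene in a table of the whole series, per the file headers with gene coordinates. Per the submitters' processing notes bcl2fastq and DRAGEN were used; tool versions, build, annotation and strandedness of counting were not given in the sources used here. All 33 members lie at the same place and strand in GENCODE v29 (GRCh38), 16 with identical start and end, and gene coordinates are printed as the table lists them. Groups and batches come from the labels. They do not say whether replicates were separate cultures, and p-values thus reflect variation among these libraries, which may be technical. TPM hold no counts, so no count test was run and no counting interval can be given.

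Values were taken as log2(TPM + 1), so fold changes of low genes are understated. A gene was tested if 3 or more libraries reached 1 TPM, which 15738 did. The test was limma 3.58.1 in R 4.3.3, fitted on the 4 group means over all 12 libraries and all genes tested, with 8 residual degrees of freedom, trend and robust options, and a threshold of 0.05 after Benjamini-Hochberg adjustment. SE and adjusted p are from this fit. Batch 3 was set against batches 1 and 2 in a fit with group and batch.

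By the labels, libraries of equal number share a batch, which is the source of the pairing. After removal of group means, the 18 pairs within a batch had a median correlation of 0.179 and the 36 pairs across batches one of -0.0974, and a second fit took the batch as a replicate block. Other alternatives were leaving out each library or batch 3, only the compared groups, pseudocounts of 0.1 and 5, a minimum of 5 TPM, no minimum, median-of-ratios scaling, quantile normalization, no trend and robust options, an adjusted p under 0.01, a fold of at least 2 and untreated cells as the control. A test of whether the siRNA effect differed in batch 3 was added after seeing the data.

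The members and lists were chosen with earlier results of these data known. The rule for names took all 33 members by layer, in full where called with both siRNAs, between the siRNAs or between batches, plus the 3 most abundant. Of the relatives and regulators, those called with both siRNAs with the largest mean change were named, up to 8, of which 1 is not reported here. WWTR1, SRF, MRTFA and TEAD2 stand outside that rule and were chosen on seeing their values, and further members were given in full on the same basis.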

Additional observations from a re-analysis of the deposited data

Results flagged for a closer look

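CSRP1, the LIM-only protein that was the most abundant member, was higher with SOX10 siRNA in batch 3 and hardly differed in batches 1 and 2. The SOX10 siRNA effect in batch 3 exceeded that in batches 1 and 2 by 1.02 on the log2(TPM + 1) scale (limma, interaction of siRNA and batch). Batch 3 holds 1 library of each group, so the spread of the effect in batch 3 was not measured and only its size is given. In batch 3 it had 395 TPM in siSOX10_1 cells and 484 TPM in siSOX10_2 cells, against 221 TPM in siCNTL cells and 230 TPM in untreated cells. In batches 1 and 2 the mean of both siRNAs minus siCNTL was 0.04 and -0.11, and in batch 3 it was 0.98. SOX10 was also lowered more in batch 3, where the same difference was -2.99, against -1.22 and -1.34 in batches 1 and 2, and the part of this in the CSRP1 difference was not tested. The effect in batch 3 minus that in batches 1 and 2 was -1.33 in KANK1 and 1.01 in PARVB. CSRP1 was picked from the members by this comparison, which was added after seeing the data. Its 4 residual degrees of freedom come from batches 1 and 2 alone.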

How the results depend on the processing

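No call changed direction under any alternative. The 5 comparisons of groups kept their counts of members called to within 1.5 times, except as follows. With a fold of at least 2 required, 5 members passed with siSOX10_1 in place of 15, 10 with siSOX10_2 in place of 17, and 7 in the mean of both in place of 17, all higher. Over all genes, 6.48% were then higher and 4.8% lower with siSOX10_1, 8.32% and 4.43% with siSOX10_2, and 7.09% and 4.41% in the mean. Between siSOX10_2 and siSOX10_1, 1 member (LIMS1) passed with the replicate block, with median-of-ratios scaling and with quantile normalization, in place of 0. Leaving out 1 library gave 12 to 17 members with siSOX10_1, 16 to 18 with siSOX10_2, 15 to 18 in the mean, and 0 in the comparisons of siSOX10_2 with siSOX10_1 and of siCNTL with untreated cells. Of all genes, 11.2% to 16.6% were then higher and 8.25% to 12.8% lower with siSOX10_1. With siSOX10_2 the shares were 13.8% to 19.6% and 7.64% to 11.4%, and in the mean 14.7% to 21.2% and 9.32% to 13.4%. Between batch 3 and batches 1 and 2, 3 members passed, 1 to 5 when leaving out 1 library (5 without untreated replicate 3), and 1 with no filter, with no trend and robust options, with an adjusted p under 0.01 and with a fold of at least 2.

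With the replicate block 16 members rose and 1 fell with siSOX10_1, 16 rose and 4 fell with siSOX10_2, and 17 rose and 4 fell in the mean, where 17.9% of all genes rose and 15% fell, 20.9% and 12.9%, and 22.6% and 15.8%. Beyond the calls named with their genes above, the block also passed PARVB (adjusted p = 0.0484), CTTN (0.0276), KANK1 (0.028) and KANK2 (0.0382) in the mean of both siRNAs. With quantile normalization 15 members rose and 5 fell in the mean, against 17.2% and 17.1% of all genes. Members lower with siSOX10_2 numbered 2 in the main fit (LIMS1 and ENAH). They numbered 1 with only the compared groups, where 9.2% of all genes were lower, and 1 with no filter, where 4.04% were. At an adjusted p under 0.01 there were 0, where 6.06% of all genes were lower. Depth is unknown, so what it limits cannot be stated, and TLN2 and EVL, each at 1 TPM or more in 5 libraries, are the least certain members.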
